A study of Homo sapiens with 8 samples.

Results

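The growth arrest and p53-type genes CDKN1A, MDM2, GADD45A, GADD45B, BTG1, BTG2, PLK2, PLK3 and PPM1D were taken by symbol from an RNA sequencing table, and all 9 were found among its 13036 genes. The list sets no threshold on any value, but it was chosen with earlier results of these data known. All 9 passed the filter on low values (at least 1 CPM in at least 2 libraries). The cells were LN229-TAZ(4SA), derived from human glioblastoma and named for an altered TAZ, the Hippo pathway co-activator encoded by WWTR1. The 4 groups, each of 2 libraries, were AF+Glucose deprivation for 7 h, Regular culture for 7 h, AF+Glucose deprivation for 1 h and Regular culture for 1 h. AF was given at 1 µM to cells held without glucose, and Regular culture cells had no AF; all 4 groups are the same engineered line, so none is without that TAZ. The labels name AF only by this abbreviation, and the series title concerns inhibition of thioredoxin reductase 1. AF and glucose loss were always applied together, so their effects cannot be told apart. Nothing in the labels says that the 2 libraries of a group came from separate cultures, so p-values speak only of the library-to-library spread, which can be technical.

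As background, p53 is a transcription factor that is stabilised by DNA damage and other stresses and switches on genes that stop the cell cycle, repair DNA or kill the cell. CDKN1A, GADD45A, BTG2, PLK2, PLK3, MDM2 and PPM1D are among its classical targets, and MDM2 and PPM1D in turn restrain p53. Several of these genes also respond to stress kinases, serum factors, NF-kB or the integrated stress response without p53.

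Of 8 neural and glioma markers, all 8 were measured, led by VIM at 2730 to 3732 CPM (counts per 1000000 reads) and NES at 888 to 1440 CPM, while GFAP lay near 0 at 0.438 to 1.34 CPM. Of 8 markers of immune, endothelial, epithelial and fibroblast cells, 3 were measured (CD68, VWF and COL1A1). Their sum was 30.2 to 30.5 CPM in AF+Glucose deprivation at 7 h, against 18.8 to 19.8 CPM in Regular culture at 7 h. At 1 h it was 19.0 to 19.3 CPM in AF+Glucose deprivation and 17.7 to 17.9 CPM in Regular culture; the part of this rise in the results was not tested. Depth ranged from 27731776 to 45811965 reads in the listed genes per library, so that a single read stood for 0.0209 to 0.0430 CPM. The authors' scaling set the effective size of the AF+Glucose deprivation 7 h libraries to 0.838 and 0.846 times their reads, against 1.04 to 1.09 times for the other libraries. TXNRD1, which encodes thioredoxin reductase 1, had 2458 and 2488 CPM in AF+Glucose deprivation at 7 h, against 354 and 347 CPM in Regular culture at 7 h.

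Promoter windows of 250 bases before to 50 after a transcription start were matched in RefSeq (GRCh38.p14) for 8 of the 9 genes; GADD45A had no entry. The windows of CDKN1A, GADD45B, PLK3 and PLK2 are shown because the first 3 of these genes rose and PLK2 fell at 7 h. They lie at chr6:36678464-36678763 (+), chr19:2475877-2476176 (+), chr1:44800127-44800426 (+) and chr5:58460037-58460336 (-), each written 5′ to 3′ on the gene's strand; the CDKN1A window belongs to a start inside the annotated span of the gene. Capitals mark letters that matched any of 11 motifs, searched on both strands.
CDKN1A: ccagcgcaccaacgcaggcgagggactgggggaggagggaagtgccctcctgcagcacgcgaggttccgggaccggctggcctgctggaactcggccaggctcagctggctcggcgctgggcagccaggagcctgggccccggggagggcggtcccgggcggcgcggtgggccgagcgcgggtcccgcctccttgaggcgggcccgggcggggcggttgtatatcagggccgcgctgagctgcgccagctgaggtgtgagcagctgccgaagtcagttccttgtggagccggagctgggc
GADD45B: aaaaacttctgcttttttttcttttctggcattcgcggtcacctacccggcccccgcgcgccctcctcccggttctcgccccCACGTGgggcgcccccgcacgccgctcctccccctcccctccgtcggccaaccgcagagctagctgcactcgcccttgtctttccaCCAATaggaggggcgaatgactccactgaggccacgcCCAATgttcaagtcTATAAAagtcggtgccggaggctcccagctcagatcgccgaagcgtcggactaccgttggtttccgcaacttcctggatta
PLK3: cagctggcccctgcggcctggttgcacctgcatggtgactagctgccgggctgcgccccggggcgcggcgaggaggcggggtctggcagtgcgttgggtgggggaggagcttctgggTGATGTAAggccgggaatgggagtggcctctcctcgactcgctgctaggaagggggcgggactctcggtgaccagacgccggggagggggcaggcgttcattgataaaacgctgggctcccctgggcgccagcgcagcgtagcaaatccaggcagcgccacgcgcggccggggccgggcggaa
PLK2: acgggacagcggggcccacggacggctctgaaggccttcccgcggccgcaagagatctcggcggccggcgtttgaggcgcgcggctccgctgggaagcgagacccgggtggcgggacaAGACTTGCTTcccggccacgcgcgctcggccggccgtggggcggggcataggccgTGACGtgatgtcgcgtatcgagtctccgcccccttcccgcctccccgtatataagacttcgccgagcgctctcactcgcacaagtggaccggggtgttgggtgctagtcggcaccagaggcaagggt

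The CDKN1A window held none of the 11 motifs. GADD45B held CACGTG, the E-box, at -168 from the start, CCAAT at -82 and -45, and the TATA box TATAAA at -31. PLK3 held 1 match to TGATGNAA, a letter pattern of C/EBP-ATF composite elements, at -133. PLK2 held the repeated unit of the p53 response element at -132 and TGACG, the core of the cAMP response element, at -77. Of all 27305 first windows in the table, 7.43% held CACGTG, 35.7% CCAAT, 12% TATAAA, 3.67% TGATGNAA, 6.54% the p53 unit and 25% TGACG. Among the windows not shown, BTG1 held the cAMP response core, the CCAAT box and the TATA box, and BTG2 the first and second of these. PPM1D held the CCAAT box and the full cAMP response element TGACGTCA (1.98% of windows), which contains its core on both strands. MDM2 has 4 windows, and the CCAAT box was in each of them. The MDM2 windows at its later starts also held TGANTCA, the AP-1 motif (7.76%), which there overlapped TGACNNNGC, the core of the antioxidant response element (13.6%). No first window of the 8 genes held GAANNTTC, the heat shock element (6.87%), or the CArG box (1.29%). A match describes letters only and says nothing of binding. The search took exact matches within these windows, so a site with a mismatch, or one elsewhere at a gene, would be missed. A window without a match, as for CDKN1A, or without the p53 unit, as for MDM2, therefore does not show that the gene lacks such an element.

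**Figure D1:**
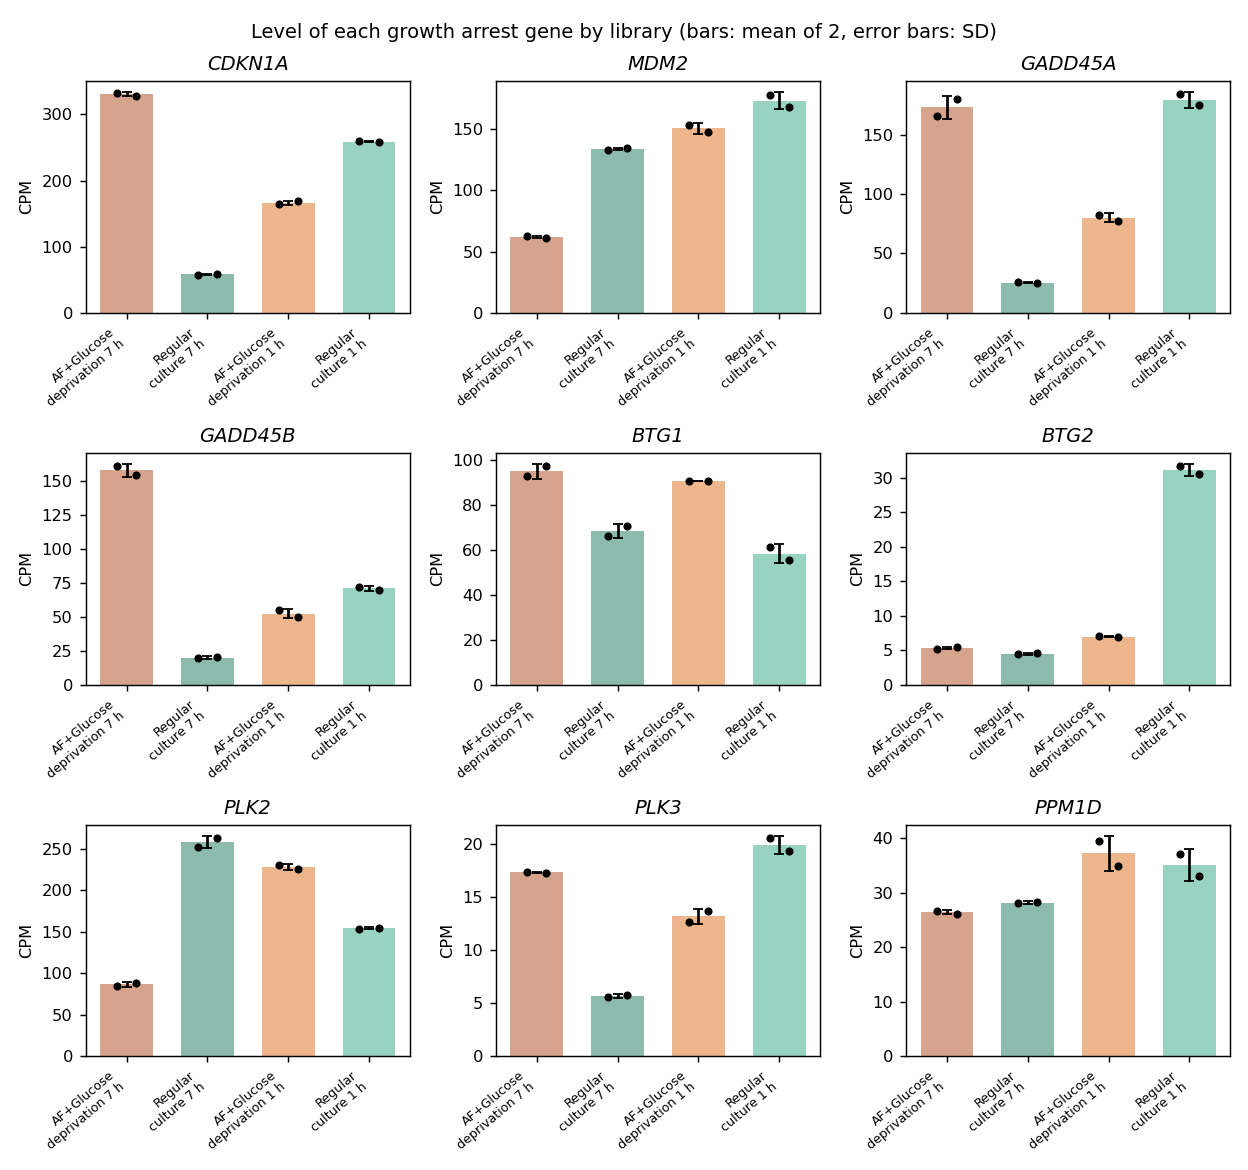
Level of each of the 9 genes in CPM (vertical axis, from 0) in the 4 groups; bars are means of 2 libraries, error bars are SD and points are single libraries. CDKN1A, GADD45A, GADD45B and PLK3 were lowest in Regular culture at 7 h, BTG2 was high only in Regular culture at 1 h at 31.7 and 30.5 CPM, and PLK2 was lowest in AF+Glucose deprivation at 7 h.

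After 7 h, 6 of the 9 genes rose in AF+Glucose deprivation relative to Regular culture (CDKN1A, GADD45A, GADD45B, BTG1, BTG2 and PLK3), MDM2 and PLK2 fell, and PPM1D did not pass the test. A gene passed at an adjusted p under 0.05 (limma, Benjamini-Hochberg over 13028 genes). Of all genes tested 81.6% passed at 7 h (40.5% higher and 41.1% lower), so the members' 8 of 9 is near the background. At least a 2-fold change was reached by 6 members (CDKN1A, MDM2, GADD45A, GADD45B, PLK2 and PLK3), against 22.1% of all genes. Because the members were chosen with earlier results known, an excess over the share of all genes, here or below, is no test of the list. In such bulk samples fewer cells that express a gene and less of its RNA per cell cannot be told apart. After 1 h, BTG1 and PLK2 rose, PPM1D did not pass, and the other 6 genes fell, among them GADD45A and BTG2 by at least 2-fold. The 1 h background was 38.4% of genes called, 17.7% higher and 20.7% lower, and 3.13% called with at least a 2-fold change. CDKN1A, GADD45A, GADD45B, BTG2 and PLK3 were higher at 7 h and lower at 1 h, a pair of calls that 7.08% of all genes shared. PLK2 had the opposite pair, lower at 7 h and higher at 1 h, as did 6.26% of all genes.

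CDKN1A (chr6:36676463-36687332, plus strand) encodes p21, which binds and blocks cyclin-dependent kinases. It had 333 and 328 CPM in AF+Glucose deprivation at 7 h, against 57.3 and 59.0 CPM in Regular culture at 7 h. At 1 h it had 164 and 169 CPM in AF+Glucose deprivation, against 259 and 258 CPM in Regular culture. The groups did not overlap at either time, and the lowest libraries of the 4 groups were those of Regular culture at 7 h. CDKN1A rose 5.68-fold at 7 h (log2 fold change 2.51, SE 0.0329, adjusted p = 2.99e-22 by limma). The 1 h level was 1.55-fold lower in AF+Glucose deprivation (log2 fold change -0.64, SE 0.0329, adjusted p = 5.53e-12 by limma). Exons of DINOL overlap CDKN1A, and the library kit does not mark strand, so reads from the shared stretch cannot be told apart. How such reads were counted is not stated.

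The GADD45 genes encode small stress sensors that bind the kinase MAP3K4, upstream of p38 and JNK, as well as p21 and PCNA. GADD45A (chr1:67685201-67688334, plus strand) had 166 and 180 CPM in AF+Glucose deprivation at 7 h, against 25.6 and 24.8 CPM in Regular culture at 7 h. At 1 h GADD45A had 82.7 and 77.4 CPM in AF+Glucose deprivation, against 184 and 175 CPM in Regular culture. Its groups were apart at both times, in opposite directions, and AF+Glucose deprivation at 7 h overlapped Regular culture at 1 h. The rise at 7 h was 6.85-fold (log2 fold change 2.78, SE 0.0458, adjusted p = 1.06e-20 by limma), and at 1 h GADD45A was 2.24-fold lower (log2 fold change -1.16, SE 0.0458, adjusted p = 6.80e-14 by limma).

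GADD45B (chr19:2476127-2478257, plus strand), known also as an early response gene of NF-kB and TGF-beta signalling, had 162 and 155 CPM in AF+Glucose deprivation at 7 h, against 19.3 and 20.6 CPM in Regular culture at 7 h. Its 1 h levels were 54.8 and 49.95 CPM in AF+Glucose deprivation, against 72.2 and 69.7 CPM in Regular culture. Unlike GADD45A, it stood above every other library of the 8 in AF+Glucose deprivation at 7 h. The 7 h rise was 7.91-fold, the largest of the 9 genes (log2 fold change 2.98, SE 0.0498, adjusted p = 1.26e-20 by limma), and 137 of the 13028 genes tested had a larger one. After 1 h it was 1.36-fold lower (log2 fold change -0.44, SE 0.0498, adjusted p = 6.77e-07 by limma).

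MDM2 (chr12:68808172-68850686, plus strand) encodes the ubiquitin ligase that marks p53 for degradation. Its levels were 62.7 and 61.1 CPM in AF+Glucose deprivation at 7 h, against 133 and 135 CPM in Regular culture at 7 h. At 1 h MDM2 had 154 and 148 CPM in AF+Glucose deprivation, against 178 and 168 CPM in Regular culture. The AF+Glucose deprivation libraries were the lower ones at both times, without overlap. MDM2 fell 2.16-fold at 7 h (log2 fold change -1.11, SE 0.0380, adjusted p = 9.15e-16 by limma), while p21 and the GADD45 genes rose. MDM2 was 1.15-fold lower at 1 h (log2 fold change -0.20, SE 0.0380, adjusted p = 2.78e-04 by limma), a difference that did not pass a test against a 1.2-fold change. Exons of the non-coding genes AC025423.2 and AC025423.4 and of the gene CPM, which encodes carboxypeptidase M, overlap MDM2, and that gene lay at 17.1 to 25.01 on the CPM scale, also lower at 7 h (log2 fold change -0.39, SE 0.0673, adjusted p = 2.84e-05 by limma).

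PPM1D (chr17:60600193-60666280, plus strand) encodes the phosphatase WIP1, which removes activating phosphates from p53, ATM targets and p38. It had 26.7 and 26.1 CPM in AF+Glucose deprivation at 7 h, against 28.1 and 28.4 CPM in Regular culture at 7 h. At 1 h PPM1D had 39.5 and 35.0 CPM in AF+Glucose deprivation, against 37.2 and 33.02 CPM in Regular culture, with overlapping groups. It passed the test at neither time, with a log2 fold change of -0.09 at 7 h (SE 0.0643, adjusted p = 0.179 by limma) and 0.09 at 1 h (SE 0.0643, adjusted p = 0.321 by limma). With libraries scaled to the total of the listed genes, PPM1D passed as lower at 7 h (log2 fold change -0.41, adjusted p = 1.22e-05 by limma), a scaling that moves the median of all genes at 7 h to -0.32.

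BTG1 and BTG2 encode related antiproliferative proteins that recruit the CCR4-NOT deadenylase to messenger RNAs. BTG1 (chr12:92140278-92145846, minus strand) had 92.5 and 97.1 CPM in AF+Glucose deprivation at 7 h, against 66.1 and 70.4 CPM in Regular culture at 7 h. At 1 h BTG1 had 90.6 and 90.4 CPM in AF+Glucose deprivation, against 61.1 and 55.2 CPM in Regular culture. All 4 treated libraries lay above all 4 of Regular culture, and BTG1 was the only one of the 9 genes to rise at both times. Its rises were 1.39-fold at 7 h (log2 fold change 0.47, SE 0.0482, adjusted p = 2.30e-08 by limma) and 1.56-fold at 1 h (log2 fold change 0.64, SE 0.0482, adjusted p = 1.84e-09 by limma). Of all genes 40.5% were called higher at 7 h and 17.7% at 1 h, and the share higher at both times was not counted. Over the alternative settings the 7 h log2 fold change of BTG1 ranged from 0.16 to 0.52 and remained a called rise. Exons of the non-coding genes AC025164.1 and LINC01619 overlap BTG1, and reads from the shared stretches cannot be told apart.

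BTG2 (chr1:203305519-203309602, plus strand) is both a p53 target and an immediate early gene. Its counts ranged from 121 to 1379 reads per library. It had 5.21 and 5.46 CPM in AF+Glucose deprivation at 7 h, against 4.38 and 4.52 CPM in Regular culture at 7 h. BTG2 had at 1 h 7.01 and 6.89 CPM in AF+Glucose deprivation, against 31.7 and 30.5 CPM in Regular culture. The Regular culture 1 h libraries stood far above all others. BTG2 was 4.45-fold lower at 1 h (log2 fold change -2.15, SE 0.0895, adjusted p = 1.61e-13 by limma), and 53 of the 13028 genes tested had a larger fall. The 7 h rise was 1.19-fold (log2 fold change 0.26, SE 0.0895, adjusted p = 0.0131 by limma). That call was lost without AF+Glucose deprivation 7 h library B (0.22, adjusted p = 0.0541) and without Regular culture 7 h library A (0.23, adjusted p = 0.0646), and its sign turned with scaling to the total (log2 fold change -0.06, adjusted p = 0.565 by limma).

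PLK2 and PLK3 encode polo-like kinases that, unlike the mitotic PLK1, are known as stress response genes. PLK2 (chr5:58453982-58460086, minus strand) had 84.6 and 88.9 CPM in AF+Glucose deprivation at 7 h, against 253 and 264 CPM in Regular culture at 7 h. At 1 h PLK2 had 231 and 225 CPM in AF+Glucose deprivation, against 153 and 155 CPM in Regular culture. The treated libraries were thus the lowest of the 8 at 7 h and stood above their 1 h Regular culture libraries. PLK2 fell 2.97-fold at 7 h (log2 fold change -1.57, SE 0.0356, adjusted p = 1.47e-18 by limma). In contrast, at 1 h it was 1.48-fold higher (log2 fold change 0.57, SE 0.0356, adjusted p = 1.15e-10 by limma).

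PLK3 (chr1:44800377-44805990, plus strand) moved the other way at each time. It had 17.4 and 17.3 CPM in AF+Glucose deprivation at 7 h, against 5.59 and 5.80 CPM in Regular culture at 7 h. At 1 h PLK3 had 12.7 and 13.7 CPM in AF+Glucose deprivation, against 20.6 and 19.4 CPM in Regular culture. No groups overlapped within a time. The rise at 7 h was 3.03-fold (log2 fold change 1.60, SE 0.0771, adjusted p = 2.23e-13 by limma), and at 1 h PLK3 was 1.51-fold lower (log2 fold change -0.59, SE 0.0771, adjusted p = 4.19e-06 by limma). TCTEX1D4 shares exon positions with PLK3, and reads from those positions cannot be told apart.

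**Figure D2:**
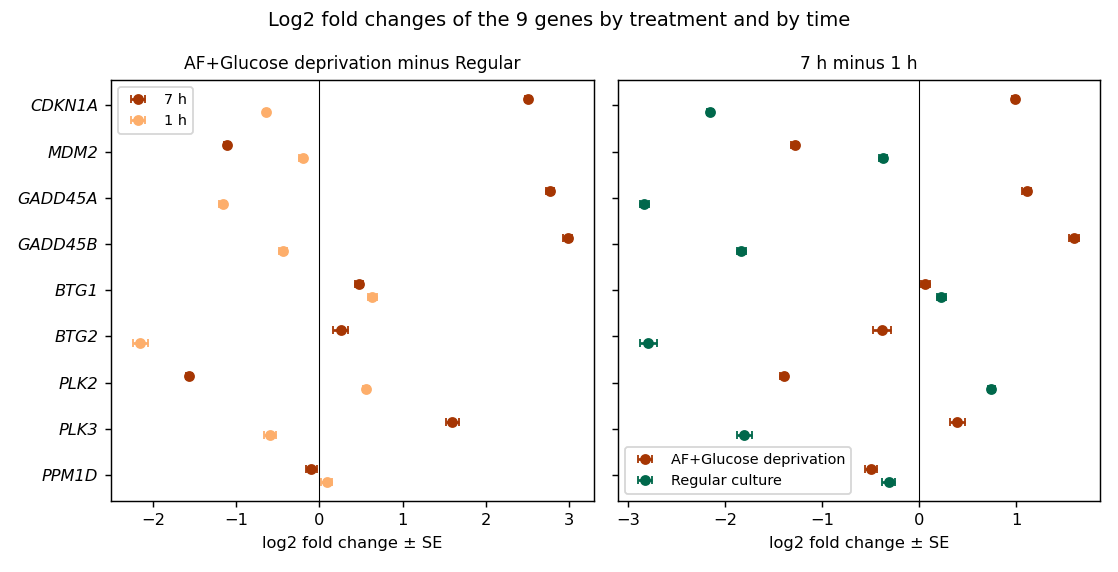
Log2 fold changes with SE (horizontal axes) of the 9 genes. The left panel gives AF+Glucose deprivation minus Regular culture at 7 h and 1 h, and the right panel 7 h minus 1 h in AF+Glucose deprivation and in Regular culture. On the left GADD45B had the largest rise at 7 h (2.98) and BTG2 the largest fall at 1 h (-2.15); on the right 7 genes lay below 0 in Regular culture.

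Regular culture also differed between the times. In its libraries 7 of the 9 genes were lower at 7 h than at 1 h, and BTG1 and PLK2 were higher. All 9 passed the test, against 61.5% of all genes (30.7% higher, 30.8% lower). Against a 1.2-fold change BTG1 and PPM1D did not pass, which left 1 gene higher and 6 lower. That test called 2936 of all 13028 genes. At least a 2-fold change was reached by CDKN1A, GADD45A, GADD45B, BTG2 and PLK3, 5 of the 9 genes, against 6.25% of all genes. GADD45A had the largest change at 7.10-fold lower at 7 h (log2 fold change -2.83, SE 0.0458, adjusted p = 2.85e-20 by limma), and BTG2 was 6.92-fold lower (log2 fold change -2.79, SE 0.0895, adjusted p = 1.64e-15 by limma). CDKN1A was 4.45-fold lower, GADD45B 3.55-fold and PLK3 3.48-fold. MDM2 and PPM1D, which hold p53 back, changed less, with log2 fold changes of -0.37 (SE 0.0380) and -0.31 (SE 0.0643). PLK2 was 1.68-fold and BTG1 1.17-fold higher at 7 h. These Regular culture libraries are also those that the treatment comparisons are set against, so the values are not independent of them.

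Within AF+Glucose deprivation, 4 of the 9 genes were higher at 7 h than at 1 h (CDKN1A, GADD45A, GADD45B and PLK3), 4 were lower (MDM2, BTG2, PLK2 and PPM1D) and BTG1 did not pass. In this comparison 77.6% of all genes passed, 36.9% higher and 40.7% lower, and 15.9% passed with at least a 2-fold change. GADD45B was 3.02-fold higher (log2 fold change 1.59, SE 0.0498, adjusted p = 3.69e-16 by limma), GADD45A 2.16-fold and CDKN1A 1.99-fold. PLK2 was 2.63-fold lower (log2 fold change -1.39, SE 0.0356, adjusted p = 1.63e-17 by limma) and MDM2 2.43-fold lower. PLK3 had a log2 fold change of 0.39 (SE 0.0771, adjusted p = 1.24e-04 by limma), which became 0.02 with scaling to the total (adjusted p = 0.781). Against a 1.2-fold change PLK3 did not pass (limma adjusted p = 0.102), nor did BTG2 (log2 fold change -0.38, limma adjusted p = 0.192). That test left 3 genes higher and 3 lower, with 6360 of all 13028 genes called. The BTG1 value was 0.07 (SE 0.0482, adjusted p = 0.211 by limma). With scaling to the total BTG1 passed as lower (-0.30, adjusted p = 1.70e-05 by limma). That scaling puts the median of all genes for this comparison at -0.40.

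Set beside Regular culture at 1 h, a comparison that differs in both treatment and time and was not tested, AF+Glucose deprivation at 7 h was higher in GADD45B by a log2 difference of 1.16, in BTG1 by 0.71 and in CDKN1A by 0.35. GADD45A differed by -0.05 and PLK3 by -0.20. The other differences were -0.41 for PPM1D, -0.83 for PLK2, -1.48 for MDM2 and -2.53 for BTG2. The high 7 h folds of GADD45A and PLK3 over Regular culture thus stood beside levels close to or under those of Regular culture at 1 h, whereas GADD45B also exceeded that group.

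The treatment effect at 7 h differed from that at 1 h in 8 of the 9 genes, against 73.7% of all genes (36.7% with a higher and 37% with a lower effect at 7 h). A difference of at least 2-fold was found for 6 members, against 22.7% of all genes. GADD45A had the largest, a log2 difference of 3.94 (SE 0.0648, adjusted p = 3.64e-20 by limma), and 53 of the 13028 genes had a larger one. The differences were 3.42 for GADD45B, 3.14 for CDKN1A, 2.41 for BTG2 and 2.19 for PLK3. They were -2.14 for PLK2 and -0.91 for MDM2. BTG1 had a difference of -0.16 (SE 0.0681, adjusted p = 0.0372 by limma). Its call was lost without AF+Glucose deprivation 1 h library A or B, Regular culture 1 h library B, AF+Glucose deprivation 7 h library A or Regular culture 7 h library B (differences -0.17 to -0.09, limma adjusted p = 0.0721 to 0.225). PPM1D did not pass (-0.18, SE 0.0910, adjusted p = 0.0812 by limma). It passed with scaling to the total (-0.57, adjusted p = 2.03e-05), which puts the median of all genes for this difference at -0.38, and without AF+Glucose deprivation 1 h library B (-0.27, adjusted p = 0.0179) or Regular culture 1 h library A (-0.27, adjusted p = 0.017).

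**Figure D3:**
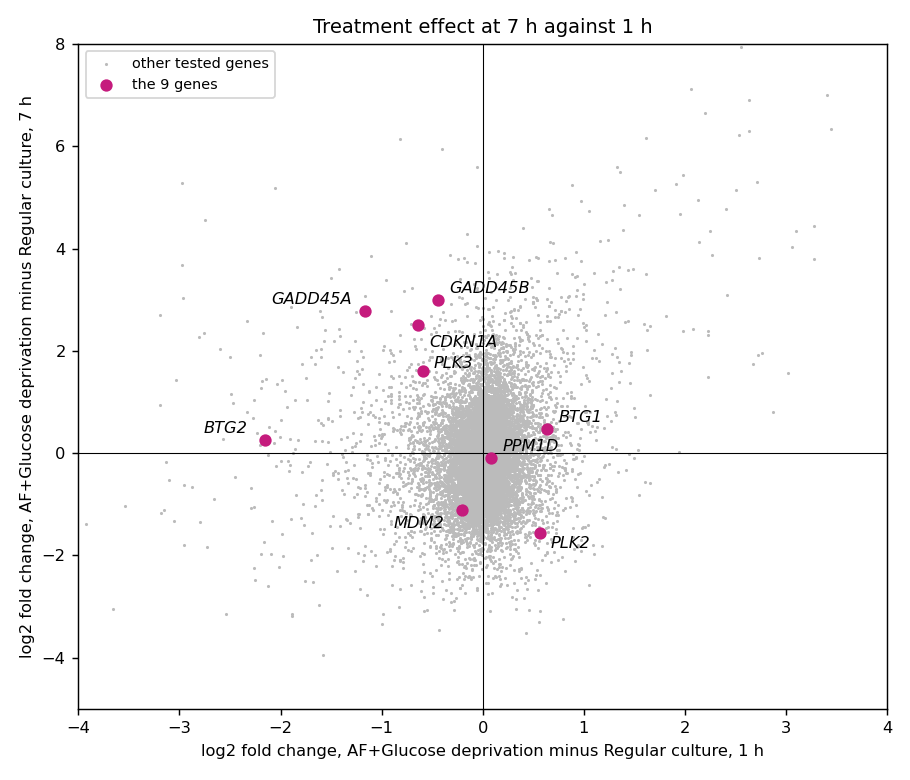
Log2 fold change of AF+Glucose deprivation minus Regular culture at 7 h (vertical axis) against the same at 1 h (horizontal axis) for the genes tested; grey points are other genes and magenta points the 9 genes, and 13 genes lie outside the axes. CDKN1A, GADD45A, GADD45B, PLK3 and BTG2 sit in the upper left, PLK2 in the lower right and BTG1 in the upper right.

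Compared per length of exon (GENCODE 29, all annotated exons of a gene), CDKN1A was the highest of the 9 genes in AF+Glucose deprivation at 7 h, at 108 ± 1.06 CPM per kilobase (SD, n = 2). GADD45A followed at 83.7 ± 4.78 and GADD45B at 74.0 ± 2.28 CPM per kilobase, then BTG1 at 19.5 ± 0.675 and PLK2 at 18.2 ± 0.638. PPM1D, PLK3 and MDM2 lay between 4.66 and 5.24 on this scale, and BTG2 was lowest at 1.93 ± 0.0643. The annotated exons of MDM2 add up to 13284 bases, against 2069 to 5044 for the other members, so its place depends on that length. Without it, MDM2 averaged 61.9 CPM in this group, above PPM1D at 26.4 and PLK3 at 17.4 CPM. In Regular culture at 7 h the order was different. PLK2 led at 54.1 ± 1.60 CPM per kilobase, and CDKN1A (19.1 ± 0.390), BTG1 (14.1 ± 0.633), GADD45A (12.2 ± 0.269), MDM2 (10.1 ± 0.0681) and GADD45B (9.33 ± 0.409) followed. PLK3 and BTG2 overlapped at the foot of that order. In AF+Glucose deprivation at 1 h CDKN1A (54.6 ± 0.989), PLK2 (47.8 ± 0.796) and GADD45A (38.7 ± 1.81 CPM per kilobase) led. In Regular culture at 1 h GADD45A (86.7 ± 3.16) and CDKN1A (84.8 ± 0.288 CPM per kilobase) overlapped at the top, and BTG1 and BTG2 also overlapped. GENCODE places no other gene over GADD45A, GADD45B, BTG2 or PLK2.

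Among the 9 genes, the level patterns over the 8 libraries most alike were those of CDKN1A and GADD45A, at a Euclidean distance of 0.73 between log2 levels centred on each gene's mean. CDKN1A and GADD45B followed at 0.85, CDKN1A and PLK3 at 0.93, and BTG1 and PPM1D at 1.12. The least alike were GADD45A and PLK2, at 4.74. Of 12096 other genes compared, the nearest to CDKN1A were NOCT at 0.43 and BCL10 at 0.50, and to GADD45B ZSWIM6 at 0.43 and BCL10 at 0.44. GADD45A was nearest to DUSP5 at 0.56 and USP53 at 0.70, and PLK3 to ZBTB21 at 0.32 and PIM3 at 0.34. For BTG2 they were REL at 0.54 and FILIP1L at 0.69, for BTG1 APTR at 0.11 and TMEM182 at 0.21, and for PLK2 FAM222B at 0.16 and ZMYM1 at 0.20. MDM2 was nearest to ARHGEF11 at 0.14 and RHPN2 at 0.20, and PPM1D to THRA at 0.13 and MBD6 at 0.14. The 8 points of each pair share library, depth and scaling, and small distances are easier to reach for genes that vary little.

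Of 34 measured p53 targets outside the 9 genes, 13 rose and 16 fell at 7 h, with a median log2 fold change of -0.07, beside -0.01 over all genes. That is 85.3% of the list called, near the 81.6% of all genes at 7 h (40.5% higher and 41.1% lower), the background for each list at this time. With scaling to the total 10 rose and 20 fell. The largest rises were GDF15, a stress cytokine, at 7.12 (SE 0.0598, adjusted p = 3.66e-25 by limma) and SESN2, an inhibitor of mTORC1 signalling, at 4.95 (SE 0.0498, adjusted p = 5.30e-24 by limma). Both are known also as targets of the integrated stress response. GDF15 averaged 654 CPM in AF+Glucose deprivation, against 4.66 CPM in Regular culture at 7 h, and SESN2 averaged 370 CPM in AF+Glucose deprivation, against 11.9 CPM in Regular culture. BBC3, which encodes the cell death protein PUMA, followed at 2.91 (SE 0.167). BBC3 was low, at a mean of 6.8 CPM in AF+Glucose deprivation and 0.86 CPM in Regular culture at 7 h. The largest falls were FUCA1, a lysosomal fucosidase, at -1.87 (SE 0.0741), SESN1 at -1.69 (SE 0.160) and ZMAT3, an RNA-binding zinc finger protein, at -1.37 (SE 0.0521). SESN1, the sestrin paralog of SESN2, therefore changed in the opposite direction, but at lower levels. It averaged 1.57 CPM in AF+Glucose deprivation and 5.12 CPM in Regular culture at 7 h.

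At 7 h 8 of 15 measured regulators and relatives of p53 rose and 5 fell (median log2 fold change 0.14), but with scaling to the total 3 rose and 8 fell (median -0.175). HIPK2, a kinase that phosphorylates p53, rose by 1.08 (SE 0.0354), and MDM4, the MDM2 relative that also restrains p53, by 0.93 (SE 0.0408), while MDM2 fell. The p53 relative TP73 fell by 0.94 on the log2 scale (SE 0.0669), and the checkpoint kinases ATR and CHEK1 fell by 0.83 (SE 0.0472) and 0.69 (SE 0.0537).

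Of the other CDK inhibitors, 2 of 6 were measured, and both fell at 7 h while CDKN1A rose. CDKN1B, which encodes p27, averaged 21.7 CPM in AF+Glucose deprivation and 51.5 CPM in Regular culture at 7 h (log2 fold change -1.24, SE 0.0603, adjusted p = 2.42e-13 by limma). At 1 h CDKN1B was the inhibitor that rose, with 43.9 CPM in AF+Glucose deprivation and 19.3 CPM in Regular culture (log2 fold change 1.19, SE 0.0603, adjusted p = 4.19e-12 by limma). CDKN2D, which encodes p19, fell by 0.98 at 7 h (SE 0.0838). Of 11 measured CDKs and cyclins that p21 or GADD45 proteins hold back, 9 fell and 2 rose at 7 h, with a median log2 fold change of -1.19. CCNA2, the S and G2 phase cyclin, fell by 2.26 (SE 0.0433), the mitotic cyclin CCNB1 by 2.16 (SE 0.0328) and CCNE2, which drives S phase entry, by 1.73 (SE 0.0707). The 2 that rose were CDK4 at 0.28 and CCND3 at 0.37 (chosen after their values were seen), and neither remained a rise with scaling to the total.

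Among relatives of the 9 genes (GADD45, BTG/TOB and PLK families), 5 of 8 were measured at 7 h, with 2 rises and 3 falls. TOB1 rose by 1.28 (SE 0.0598) and BTG3 by 0.62 (SE 0.0483), and TOB2 fell by 0.84 (SE 0.0442), so antiproliferative BTG/TOB genes went both ways. The mitotic kinase PLK1 fell by 1.83 (SE 0.0330) and PLK4, which drives centriole duplication, by 1.60 (SE 0.0454). Of 6 GADD45 kinase partners 5 fell and none rose, while 41.1% of all genes were called lower and 40.5% higher. Against a 1.2-fold change 2 of these falls passed, beside 3779 falls among all 13028 genes. The largest falls among them were MAPK14, which encodes p38 alpha, at -1.65 (SE 0.0459) and MAP3K4 at -0.79 (SE 0.0482). Of 11 CCR4-NOT subunits and PRMT1, 3 rose and 4 fell, against 2 and 9 with scaling to the total. CNOT2 and CNOT6L rose by 0.65 (SE 0.0415) and 0.61 (SE 0.0565), while CNOT9, CNOT6 and CNOT11 fell by 0.95, 0.94 and 0.86. Of 10 PPM1 phosphatases outside the 9 genes, 3 rose and 4 fell, against 1 and 5 with scaling to the total. PPM1E rose by 1.07 (SE 0.0777) and PPM1A fell by 0.77 (SE 0.0599). PPM1H rose by 0.59 (SE 0.152, adjusted p = 0.00162 by limma), and its call was lost with scaling to the total (0.28, adjusted p = 0.103).

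**Figure D4:**
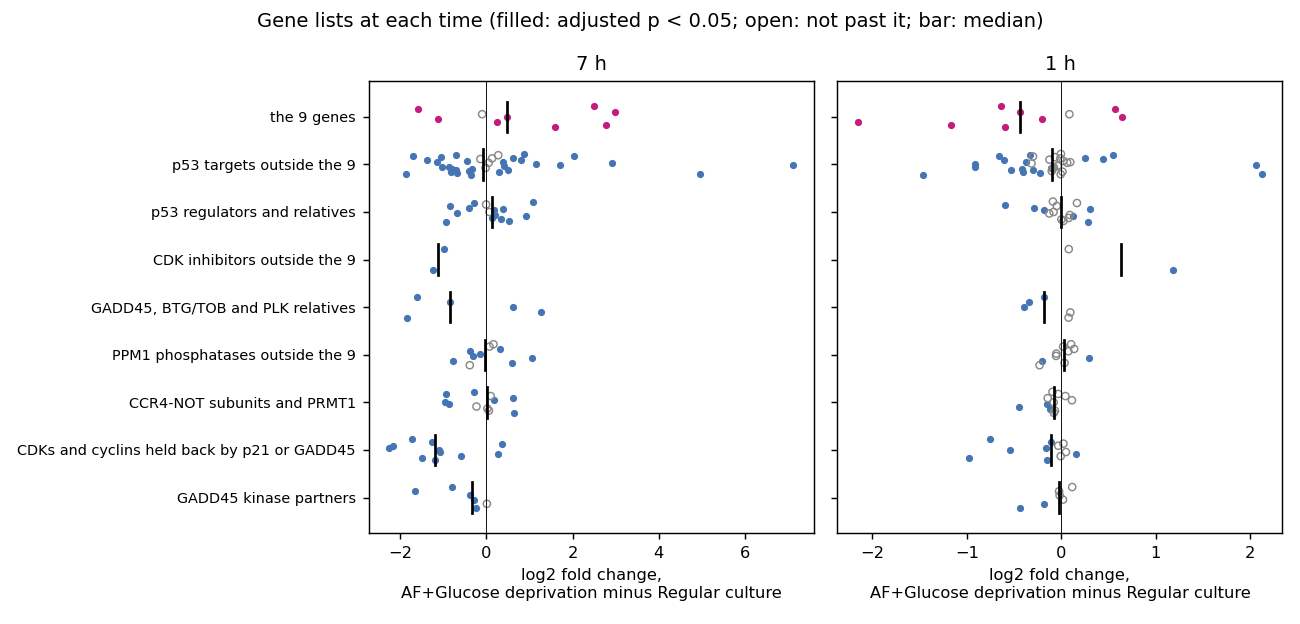
Log2 fold change of AF+Glucose deprivation minus Regular culture (horizontal axes) for each gene of the lists, at 7 h on the left and 1 h on the right; filled points passed the test, open points did not, and black bars are medians. The CDKs and cyclins had a median of -1.19 at 7 h, and the p53 targets lay on both sides of 0 with a median of -0.07.

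At 1 h fewer genes passed in all, 38.4% against 81.6% at 7 h, and this 1 h share (17.7% higher and 20.7% lower) is the background for the counts of each list. Of the 34 p53 targets 5 rose and 13 fell, or 52.9% called (median -0.09, beside 0.01 over all genes). SESN2 rose by 2.13 (SE 0.0498) and GDF15 by 2.06 (SE 0.0598), both opposite in direction to CDKN1A and the GADD45 genes at this time. The receptor kinase EPHA2 fell by 1.46 (SE 0.0367), and SERTAD1 (SE 0.0486) and the nuclease AEN (SE 0.0419) each fell by 0.91. Of the CDKs and cyclins 6 fell and 1 rose, with CCND1, cyclin D1, lower by a log2 fold change of -0.98 (SE 0.0298) and CCNE2 of -0.76 (SE 0.0707). The p53 regulators and relatives had 3 rises and 3 falls, the family relatives no rise and 3 falls, and the GADD45 kinase partners no rise and 2 falls. The CCR4-NOT list had no rise and 3 falls, and the PPM1 phosphatases 1 rise and 1 fall. Scaling to the total turned these into 7 rises and 12 falls among p53 targets, 7 and 2 among p53 regulators and relatives, and 2 and 3 among CDKs and cyclins. With that scaling the family relatives had 2 rises and 2 falls, the GADD45 partners 1 and 1, the CCR4-NOT list 1 and 0, and the PPM1 phosphatases 3 and 0. A test against a 1.2-fold change left 2 rises and 6 falls among p53 targets and 0 and 3 among CDKs and cyclins. It called 0 p53 regulators and relatives, 0 family relatives and 0 GADD45 partners. The CCR4-NOT genes and PPM1 phosphatases called were also 0. Of all 13028 genes that test called 1253 at 1 h. TP63, a p53 relative at 1.54 CPM in AF+Glucose deprivation and 2.34 CPM in Regular culture, fell by 0.60 (SE 0.228, adjusted p = 0.0444 by limma), a call lost without any 1 of the 4 libraries of that time (adjusted p = 0.0548 to 0.28). Without AF+Glucose deprivation 1 h library A, 0 CCR4-NOT genes were called. Without library B of that group 4 CDKs and cyclins, 1 PPM1 phosphatase, 0 CCR4-NOT genes and 1 GADD45 partner were called. Without Regular culture 1 h library A, 1 PPM1 phosphatase and 1 CCR4-NOT gene were called, and without its library B 1 GADD45 partner.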

How the data were processed

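RNA from 8 libraries of LN229-TAZ(4SA) cells, 2 in each of 4 groups, was sequenced after preparation with SMART-Seq mRNA HT and Nextera XT kits, per the labels' protocols. Per the submitters' processing notes, HISAT2, the GRCh38 build and edgeR were used. Their versions, the counting step and any filter on low genes are, in the sources used here, not stated. The deposited values are log2 CPM with a prior of 0.0522 CPM (2 reads in a mean library), already scaled between libraries by the authors. With the prior taken off, 100% of values were whole reads to within 0.1 read, and levels are printed as CPM on that footing. The limit that 0 reads allow (3 reads) was 0.0626 to 0.129 CPM and covers counting error only. Columns are headed by group without replicate numbers, so a pair of libraries is named A and B in no order. Library A differed from B beyond counting error in every group (chi-square per degree of freedom 2.79 to 3.62), and each was counted as a sample.

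A filter of 1 CPM or more in 2 libraries or more kept 13028 genes and removed 8. With limma 3.58.1 (R 4.3.3), a mean for each group was fitted to the deposited log2 values of all 8 libraries with an intensity trend. The fit had 4 residual and 14.5 prior degrees of freedom and a median residual SD of 0.0587. It was also run on simulated reads in which far fewer genes changed than here, so that run does not vouch for these calls. The threshold was an adjusted p of 0.05 (Benjamini-Hochberg, over all genes tested). Fold changes are on the log2 scale with the prior, which understates changes of low genes. No count model was run on the recovered reads because the deposited unit is log2; voom weights on them were an alternative. Exon lengths and overlaps are from GENCODE 29, and gene spans and promoters from RefSeq (GRCh38.p14), to which 12970 identifiers matched; 64 genes had no symbol.

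The 9 genes and the lists were chosen with earlier results of these data known, and results for 1 list gene are not reported here. From each list outside the 9 genes, the top 3 rises and top 3 falls of each time were named, where there were as many, among genes that passed and changed at least 1.5-fold. The nearest genes are the 2 at the smallest distance among genes with a mean of 1 CPM or more, without pseudogenes and clone names. Alternatives were other filters on low values, quantile normalization, scaling to the libraries' totals, other priors, no trend, voom, a test against a 1.2-fold change, a fit to only the groups compared, and leaving out each library.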

Additional observations from a re-analysis of the deposited data

Results flagged for a closer look

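The treatment effect at 7 h differed from that at 1 h, by the tested difference of both log2 fold changes (limma, adjusted over 13028 genes), in 8 of the 9 genes. GADD45A differed by 3.94, GADD45B by 3.42, CDKN1A by 3.14, BTG2 by 2.41 and PLK3 by 2.19, each with a higher effect at 7 h. PLK2 differed by -2.14, MDM2 by -0.91 and BTG1 by -0.16, each with a lower effect at 7 h. The BTG1 call was lost without AF+Glucose deprivation 1 h library A or B, Regular culture 1 h library B, AF+Glucose deprivation 7 h library A or Regular culture 7 h library B, with differences of -0.17 to -0.09. Of all genes tested 73.7% differed in this way.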

How the results depend on the processing

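No paired analysis was possible because the table's columns carry no replicate numbers. Members called numbered 7 or 8 of the 9 genes at 7 h and at 1 h under every alternative run. Over these runs all genes called ranged from 7337 to 10725 at 7 h and from 1253 to 5760 at 1 h. Each of these extremes was out of 13028 tested. The members were chosen with earlier results known, so their steadier count is no test of the list. Genes called under a test against a 1.2-fold change were 1253 at 1 h (4997 otherwise), 2936 for Regular culture 7 h minus 1 h (8013) and 6360 for AF+Glucose deprivation 7 h minus 1 h (10114), since that test asks for a larger change. With 1 library left out, genes called ranged from 9973 to 10652 at 7 h, from 3659 to 5284 at 1 h and from 9054 to 9436 for the difference. For time they ranged from 9364 to 10127 in AF+Glucose deprivation and from 6759 to 8268 in Regular culture. Leaving out 1 library gave PPM1D log2 fold changes of -0.00195 to 0.17 at 1 h, with -0.0001449 without Regular culture 1 h library B. Scaling by each library's total over the listed genes turned BTG2 at 7 h to -0.0566 and BTG1 in AF+Glucose deprivation 7 h minus 1 h to -0.305, and quantile normalization turned the last to -0.0272. The BTG2 call at 7 h was also lost with voom weights (adjusted p = 0.053) and with only the groups compared in the fit (0.0609), and the BTG1 difference without an intensity trend (0.142). Scaling to the total put the median log2 fold change of all genes at -0.32 at 7 h, -0.38 for the difference and -0.40 for AF+Glucose deprivation 7 h minus 1 h. The share of calls that were higher then went to 29.3% at 7 h (49.7% as deposited), 68.4% at 1 h (46.1%; quantile 57.8%), 24.9% for the difference (49.8%) and 20.8% in AF+Glucose deprivation over time (47.5%). Depth was thinnest for BTG2 at 7 h, with 121 and 171 reads in AF+Glucose deprivation and 210 and 205 reads in Regular culture.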
